A study of Homo sapiens with 6 samples.

Results

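The Krüppel-like factors (KLFs) are transcription factors that bind GC-rich stretches and CACCC boxes of DNA through a block of C2H2 zinc fingers near the C-terminus. The zinc fingers are much alike between members, whereas the N-terminal parts differ: KLF2, KLF4, KLF5, KLF6 and KLF7 are mainly described as activators, KLF3 recruits the corepressor CtBP, and KLF9, KLF10, KLF11 and KLF13 bind the corepressor SIN3. In epithelia KLF4 is known for growth arrest and differentiation and KLF5 for proliferation. The 10 genes named here, of 19775 with a probe set of their own on the array, were taken with every probe set annotated to 1 of them alone, which gave 32 of 54675 probe sets. On this array a transcript is read by a probe set, several short oligonucleotides whose brightness is combined into 1 signal.

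Messenger RNA was measured in A549 cells, an established human lung adenocarcinoma line, on 6 Affymetrix arrays. In the 3 NME2-depleted samples NME2 was transiently silenced with an siRNA duplex, and the 3 control samples received control siRNA duplexes. NME2 encodes a nucleoside diphosphate kinase that also binds DNA. The labels give no other alteration in either group. The sources name 2 suppliers for the siRNA without its sequence, so effects of this duplex on other transcripts cannot be told apart from those of NME2 loss. Values are array signals on a linear scale. Differences are log2 signal in NME2-depleted minus control samples, with the standard error (SE) of limma, and a fold is 2 to the power of that difference.

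The family was chosen from results of this same comparison. KLF4 and KLF7 had passed an adjusted p of 0.05 in the limma fit over all tested probe sets (adjusted p = 0.0218 and 0.0379), and these values are why the family is described. Differences of the KLF genes are therefore given as a description, with their errors and without a test. Of the 32 probe sets, 24 lay above the filter on dim signals, a mean log2 signal over the 6 arrays that corresponds to 71.7, and 8 lay below it. The 24 covered 9 genes, and all 5 probe sets of KLF9 lay below the filter. Of the 24 probe sets 2 were past the threshold (8.33%), against 0.396% of all 27307 tested probe sets, and nothing is read from this share because the comparison chose the family.

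The silenced transcript was reduced in every depleted sample. The NME2 probe set had signals of 1920, 3676 and 3216 in NME2-depleted cells and 17862, 19389 and 21044 in control cells (log2 difference -2.78, SE 0.19, limma adjusted p = 0.00032). Median signals of the arrays lay between 75.7 and 85.2. All 9 markers of the A549 line were above the filter in both groups, and they did not all stay level. Their summed signal was 131018 to 155686 in NME2-depleted and 134994 to 158415 in control cells. KRT18, KRT19, ALDH1A1, AKR1B10 and AKR1C1 overlapped between the groups. EPCAM, an epithelial adhesion protein, had 547.1 to 836.9 in NME2-depleted and 380.9 to 455 in control cells, without overlap (0.71, SE 0.16, limma adjusted p = 0.0884). The cadherin genes CDH2 (0.31, adjusted p = 0.103) and CDH1 (0.21, adjusted p = 0.324) were also higher without overlap on their brightest probe sets. Each has 1 other tested probe set, which is not described here. The keratin gene KRT8 was lower without overlap (-0.24, adjusted p = 0.209). Among 7 endothelial markers the summed signal was 622.8 to 700.8 in NME2-depleted and 378.9 to 459.2 in control cells, and ESAM, at 219.6 to 402 against 52.2 to 127.4, made most of this gap. PECAM1, the other endothelial marker above the filter, had 231.2 to 252 in NME2-depleted and 157.8 to 236.1 in control cells. The remaining 5 lay below the filter and overlapped, with KDR at 24.4 to 50.7 against 5.2 to 28.5, and CDH5, VWF, TEK and CLDN5 at 8.5 to 38.8 against 6.7 to 53.4. The 4 leukocyte markers summed to 314.7 to 443.4 and 370.5 to 461.4, and the 6 fibroblast markers to 832.8 to 978 and 626.3 to 836.9, in NME2-depleted and control cells. The part of these shifts in the KLF values was not tested.

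Promoter windows are shown for KLF4 and KLF7, each with 1 probe set past the threshold, and for KLF6, a bright member whose groups overlapped. Each window runs from 250 bases before to 50 bases after a transcription start site of RefSeq on GRCh38.p14, written 5′ to 3′ on the strand of the gene. Capitals mark a CACCC box (CACCC or its complement GGGTG) or a GC box (GGGCGG or its complement CCGCCC), the sites that KLF and SP proteins are known to bind.
KLF4, chr9:107489720-107490019, minus strand: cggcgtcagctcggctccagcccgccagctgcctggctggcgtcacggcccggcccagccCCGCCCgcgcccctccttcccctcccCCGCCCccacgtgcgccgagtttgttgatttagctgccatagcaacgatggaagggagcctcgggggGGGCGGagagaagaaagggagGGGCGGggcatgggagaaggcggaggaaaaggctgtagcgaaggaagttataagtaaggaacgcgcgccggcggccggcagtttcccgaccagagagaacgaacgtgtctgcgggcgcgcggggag
KLF7, chr2:207165899-207166198, minus strand, the first of 4 windows: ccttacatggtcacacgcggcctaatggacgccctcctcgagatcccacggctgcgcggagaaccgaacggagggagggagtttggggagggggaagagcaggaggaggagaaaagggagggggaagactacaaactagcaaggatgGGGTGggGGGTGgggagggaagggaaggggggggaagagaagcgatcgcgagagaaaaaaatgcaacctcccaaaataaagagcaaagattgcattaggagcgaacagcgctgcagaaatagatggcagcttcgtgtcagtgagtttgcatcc
KLF6, chr10:3785160-3785459, minus strand: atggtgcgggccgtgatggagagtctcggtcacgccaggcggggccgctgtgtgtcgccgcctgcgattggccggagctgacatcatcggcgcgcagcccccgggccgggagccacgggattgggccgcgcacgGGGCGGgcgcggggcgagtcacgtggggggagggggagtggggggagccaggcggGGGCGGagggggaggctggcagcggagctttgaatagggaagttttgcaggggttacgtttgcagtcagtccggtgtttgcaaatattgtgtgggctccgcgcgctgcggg
The KLF4 window held 0 CACCC boxes and 4 GC boxes, the first KLF7 window 2 and 0, and the KLF6 window 0 and 2. The counts for KLF7 depended on the start site, since its other 3 windows held 1 and 0, 1 and 4, and 0 and 0. RefSeq windows were matched for 8 of the 10 genes, 13 windows in all, and KLF3 and KLF10 had none. A CACCC box was in 7 of the 13 and a GC box in 8, against 59.9% and 45% of all 35116 windows of this length. The letters are a description of the windows and do not show binding.

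KLF4, the epithelial differentiation factor that is also used to reprogram cells to pluripotency, had 1.77-fold more signal in NME2-depleted cells, the largest difference among the brightest probe sets of the 9 tested genes. Probe set 221841_s_at had signals of 1806, 1354 and 1433 in NME2-depleted cells and 940.1, 794.9 and 839.1 in control cells. The groups were well apart, and the lowest depleted signal was 1.44 times the highest control signal. Means were 1531 ± 241 in NME2-depleted and 858 ± 74.4 in control cells (SD, n = 3 each), a log2 difference of 0.83 (SE 0.12). The other probe set, 220266_s_at, had dimmer signals of 271, 203 and 180.5 in NME2-depleted cells against 150.3, 169.3 and 116.7 in control cells. Its groups did not overlap either, and its difference was 0.58 (SE 0.23), not past the threshold over all probe sets. NME2-depleted replicate 1 was the highest sample on both probe sets. Because RNA came from whole cultures, more transcript per cell and more cells that make it cannot be told apart. The pass of 221841_s_at depended on the arrays. It held without NME2-depleted replicate 2 (limma adjusted p = 0.0341) or control replicate 1 (adjusted p = 0.033), and it missed the threshold without NME2-depleted replicates 1 and 3 (adjusted p = 0.0735 and 0.0638) or control replicates 2 and 3 (adjusted p = 0.0842 and 0.0709). The log2 difference stayed between 0.70 and 0.91 whichever array was left out. With the mean of both probe sets it was 0.70 and missed the threshold (adjusted p = 0.0822).

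KLF7, known for roles in neuronal development, had higher mean signals in NME2-depleted cells on all 5 of its probe sets, but the sizes differed. On 240432_x_at the signals were 942.7, 979.2 and 789.8 in NME2-depleted cells and 570, 593.1 and 559.3 in control cells. The groups were apart, at 904 ± 100.5 and 574 ± 17.3 (SD, n = 3 each), and the difference of 0.65 (SE 0.11) corresponds to 1.57-fold. The suffix _x_at marks a probe set whose oligonucleotides can also bind other transcripts. The remaining 4 probe sets had smaller differences. On 204334_at the signals were 701.9, 667.3 and 714.1 in NME2-depleted and 495.5, 615.1 and 641.5 in control cells, again without overlap (0.26, SE 0.12). On 1555420_a_at they were 730.7, 790.6 and 620.8 against 603.8, 597.4 and 628, so that 1 depleted sample lay below the highest control sample (0.22, SE 0.12). On 238517_at and 238482_at the groups overlapped, with differences of 0.26 (SE 0.18) and 0.06 (SE 0.17). The mean over the 5 probe sets was 0.29, and a whole-table fit on such means gave an adjusted p of 0.218. 240432_x_at missed the threshold whichever array was left out (limma adjusted p from 0.062 to 0.138). Without probe sets that end in _s_at or _x_at, 1555420_a_at stood for the gene, at 0.22, and no probe set of KLF4 was left.

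**Figure D1:**
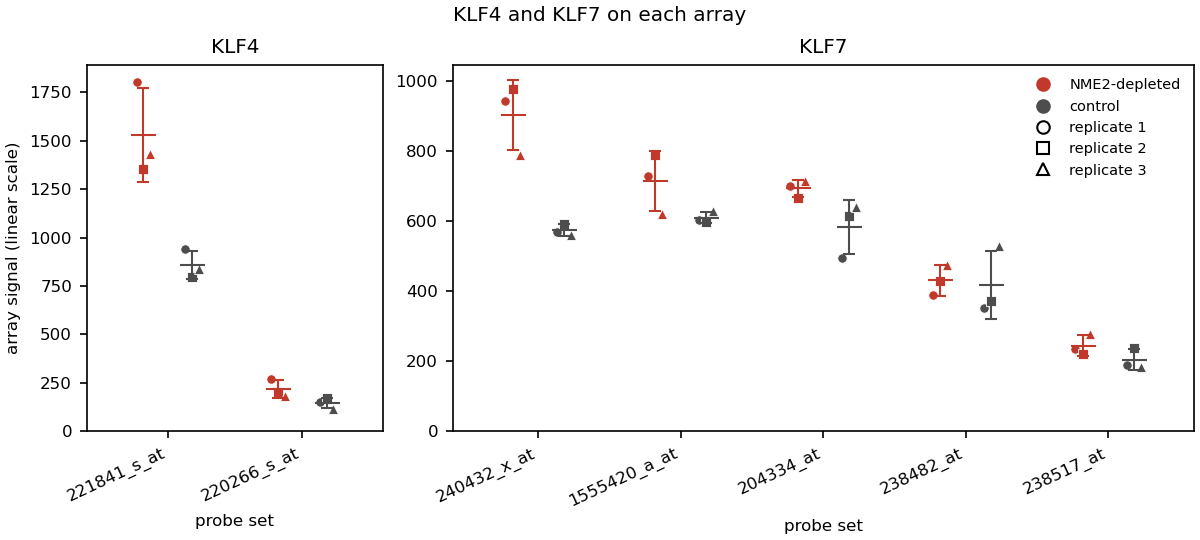
Array signal (vertical axis, linear scale) of each probe set of KLF4 (left panel) and KLF7 (right panel) in 3 NME2-depleted (red) and 3 control (grey) samples; point shapes give the replicate number, and bars the mean and SD. The groups are apart on both KLF4 probe sets and on 240432_x_at and 204334_at of KLF7, and they overlap on the other 3 KLF7 probe sets.

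The other activators showed smaller and mixed differences. KLF2, a factor of quiescent endothelium and T cells that is also needed for lung development, had signals of 273.4, 457.5 and 243.9 in NME2-depleted cells and 307.6, 388.1 and 366 in control cells on 219371_s_at. The depleted samples lay on both sides of the control samples (-0.17, SE 0.22). The second KLF2 probe set was below the filter, at 24.1 to 99.5 in NME2-depleted and 10.5 to 58.4 in control cells. KLF5, which promotes proliferation of epithelial cells, had 565, 502.9 and 623.9 in NME2-depleted cells and 504.9, 526.8 and 540.9 in control cells on 209211_at. The groups overlapped (0.10, SE 0.12), and on the other probe set the difference was -0.04 (SE 0.14).

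KLF6, an early-response factor with a described growth-suppressing role, was measured by 5 probe sets, and the groups overlapped on all of them. On 224606_at the signals were 2460, 2041 and 2492 in NME2-depleted cells and 2537, 1925 and 2313 in control cells (0.05, SE 0.11). The other 4 probe sets had differences from -0.10 (208961_s_at, SE 0.11) to 0.17 (1555832_s_at, SE 0.12). Control replicate 2 was the lowest control sample on 4 of the 5. The probe sets of KLF6 mostly moved together within groups. After each group mean was subtracted, the correlation of log2 signals over the 6 arrays, which share 1 scaling per array, was positive for 8 of 10 pairs of probe sets, from -0.27 to 0.96 with a median of 0.68. For KLF7 it was positive for 3 of 10 pairs, from -0.75 to 0.89, and for KLF3 for 3 of 6 pairs, from -0.68 to 0.34. For the single pairs of KLF4 and KLF5 it was 0.54 and 0.43, and for those of KLF11 and KLF13 -0.29 and -0.59.

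KLF3, which represses transcription through CtBP in blood and fat cells, had a higher mean in NME2-depleted cells on all 4 probe sets, with overlap on each. The brightest, 225133_at, had 1116, 1190 and 1252 in NME2-depleted cells and 1088, 1141 and 1153 in control cells (0.07, SE 0.09). On 219657_s_at the signals were 236.3, 291.7 and 174.8 against 138.6, 183.8 and 203, and the difference of 0.41 (SE 0.23) was the largest of the 4. Here NME2-depleted replicate 3 lay below the highest 2 control samples. The remaining 2 probe sets had differences of 0.20 (SE 0.17) and 0.04 (SE 0.26).

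Among the SIN3-binding members, KLF10 and KLF11 are known as early genes of the TGF-beta response. KLF10 has 1 probe set, with 2725, 2556 and 2485 in NME2-depleted cells and 2849, 2072 and 2042 in control cells. Control replicate 1 was the highest of the 6 samples and the other control samples were the lowest. The difference was 0.17 (SE 0.12), and 0.33 without control replicate 1. KLF11 had 258, 271.3 and 308.6 in NME2-depleted cells and 276.3, 234.9 and 266.3 in control cells on 218486_at, with overlap (0.11, SE 0.16), and 0.05 (SE 0.34) on the other probe set.

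KLF13 is described as an activator of the chemokine gene CCL5 in T cells. Its brightest probe set, 225390_s_at, had 3319, 3271 and 3136 in NME2-depleted cells and 3021, 3356 and 3431 in control cells (-0.01, SE 0.07). On 219878_s_at the mean was lower in NME2-depleted cells, at 28.5, 103.7 and 70.7 against 159.8, 88.2 and 85.7 in control cells. The groups overlapped and the difference of -0.84 had an SE of 0.46. The depleted mean of 67.6 lies under the filter's 71.7, and the probe set passed through its control signals. The other 2 probe sets of KLF13 were below the filter. KLF9, a target of glucocorticoid and thyroid hormone receptors, had signals between 3.2 and 96.8 on its 5 probe sets, all below the filter, and differences from -1.47 to 1.54 whose SEs between samples were 0.63 to 1.20. At the upper end, 203541_s_at had 89.4, 51.9 and 23.8 in NME2-depleted cells and 13.7, 24.7 and 13.3 in control cells, with overlap. No direction is given for KLF9.

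**Figure D2:**
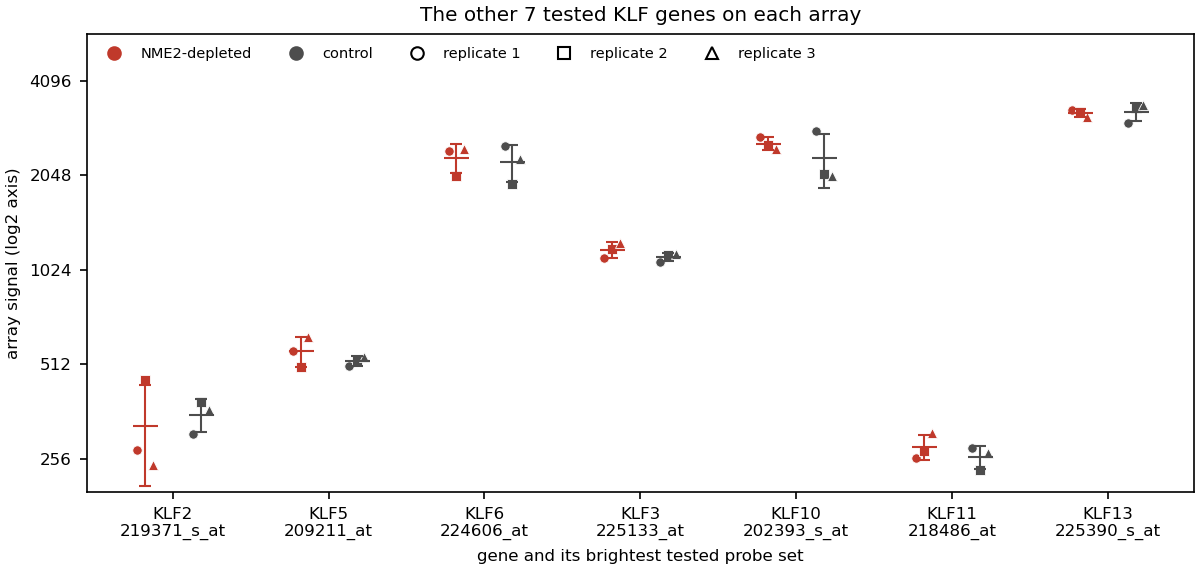
Array signal (vertical axis, log2 spacing) of the brightest tested probe set of the 7 tested KLF genes other than KLF4 and KLF7, in NME2-depleted (red) and control (grey) samples; shapes give the replicate number, and bars the mean and SD of 3 samples. The groups overlap for each of the 7 genes, and control replicate 1 is the highest sample of KLF10.

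Of the 24 tested probe sets 19 had a higher and 5 a lower mean after NME2 depletion. Their median was 0.12, against 0.01 over all tested probe sets, of which 52.5% had a higher mean. KLF4 and KLF7, whose higher signals led to the choice of the family, made 7 of the 19. Without them 12 of 17 probe sets had a higher mean, with a median of 0.072, and the groups overlapped on all 17. The groups did not overlap on 4 of the 24 (16.7%), the 4 of KLF4 and KLF7 named above, against 18.6% of all tested probe sets. Taking each gene by its brightest tested probe set, 7 of 9 genes had a higher mean and the median was 0.10, against 0.00064 over 12406 genes. Without KLF4 and KLF7 it was 5 of 7 genes and 0.072. Per sample, the median of the 9 genes over their control mean was 0.11, 0.08 and 0.15 in the 3 NME2-depleted samples. In the 3 control samples it was -0.01, 0.01 and 0.04. The 9 genes include KLF4 and KLF7, so these medians are no support for a shift of the whole family. The median difference of the 9 genes depended on single arrays, at 0.032 without NME2-depleted replicate 3, and centring each array on its median made it 0.052. All 9 genes kept their sign under quantile normalization and under median centring, where KLF6 was at 0.00096. Leaving out 1 array at a time could change the sign of KLF2 (-0.45 to 0.006), KLF6 (-0.06 to 0.14) and KLF13 (-0.07 to 0.03). The other tested genes stayed higher in NME2-depleted cells in these fits. The ratio of 3′ to 5′ signal of ACTB, a sign of RNA quality, was 1.326 to 1.396 in NME2-depleted and 1.198 to 1.305 in control samples. For GAPDH this ratio overlapped, at 0.9848 to 1.064 in NME2-depleted and 0.9696 to 1.021 in control samples. The part of RNA quality in these differences was not tested.

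**Figure D3:**
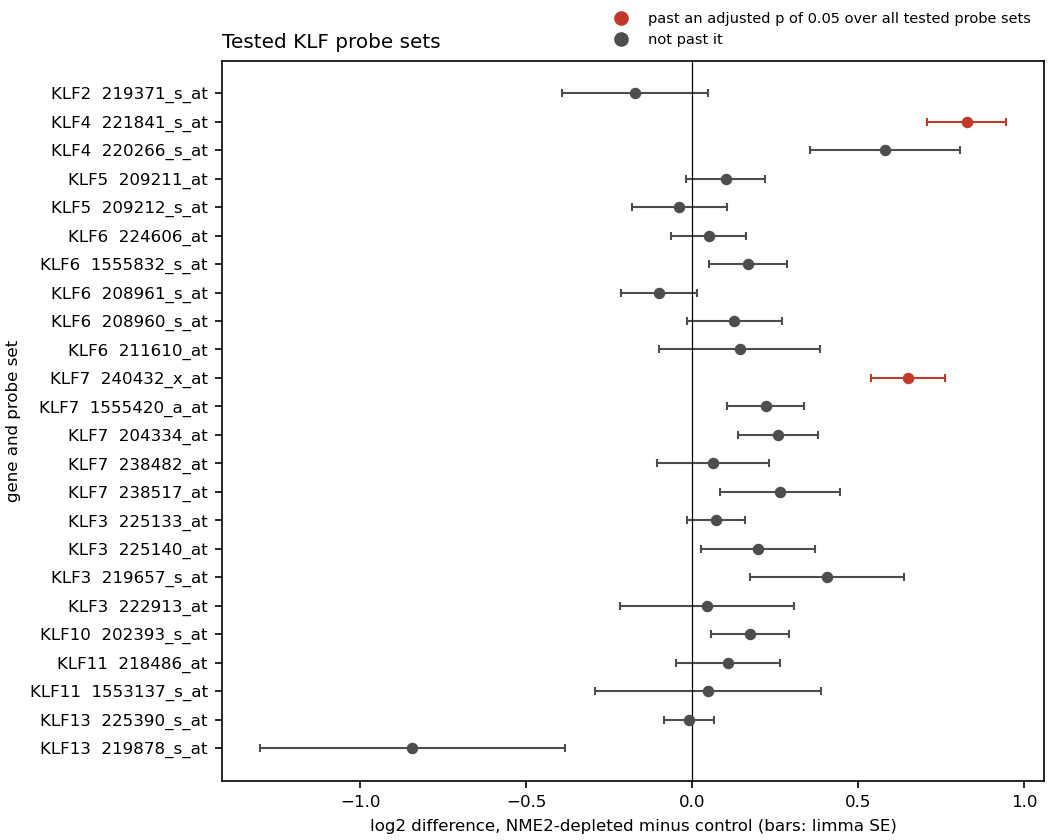
Log2 difference, NME2-depleted minus control (horizontal axis), of the 24 tested KLF probe sets, with bars for the limma SE; red points passed an adjusted p of 0.05 over all tested probe sets. The 2 red points are 221841_s_at of KLF4 at 0.83 and 240432_x_at of KLF7 at 0.65, and the lowest point is 219878_s_at of KLF13 at -0.84.

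The relatives outside the chosen family were other KLF genes and the SP factors, which share the zinc finger type and bind GC boxes. Of 17 such genes 15 were on the array and 7 were tested. None passed the limma threshold, against 0.54% of all 12406 genes tested, 2 of the 7 had an unadjusted p under 0.05, against 15% of all genes, and the methods' t-test gave 3 without adjustment, against 12.9% of all genes, and 0 with it. SP4, a factor of neurons, had 440.2, 453.4 and 460.8 in NME2-depleted cells and 266.4, 333.8 and 351.2 in control cells. The groups were apart, with a difference of 0.52 (SE 0.14, limma adjusted p = 0.149). SP2 went the other way, with 995.4, 993.1 and 795.9 in NME2-depleted cells and 1137, 1292 and 1449 in control cells, also apart (-0.48, SE 0.12, adjusted p = 0.118). SP3 had 3404, 3683 and 3445 in NME2-depleted cells and 3270, 3204 and 3029 in control cells, without overlap (0.15, SE 0.07, adjusted p = 0.41), and its other tested probe set also had no overlap (0.53, SE 0.19, adjusted p = 0.263). SP1, the ubiquitous member, had a difference of -0.10 (SE 0.08, adjusted p = 0.643), and SP6 of -0.10 (SE 0.25, adjusted p = 0.91). KLF12, a CtBP-binding repressor, had 0.23 (SE 0.16, adjusted p = 0.581), and KLF16 -0.04 (SE 0.19, adjusted p = 0.951). The second tested probe set of KLF16 pointed the other way with a wide error (0.76, SE 0.44, adjusted p = 0.505), and the other 2 tested probe sets of KLF12 had 0.22 (SE 0.25) and 0.16 (SE 0.36). KLF1, KLF8, KLF14, KLF15, KLF17, SP5, SP7 and SP8 lay below the filter on all their probe sets.

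Coregulators, upstream regulators and described targets of KLF proteins held no gene past the threshold. Of 73 such genes 66 were on the array and 54 were tested, of which 24 had a higher and 30 a lower mean in NME2-depleted cells. Limma passed 0 of the 54, against 0.54% of all genes, and at so small a share nothing is read from this 0. At an unadjusted p under 0.05 there were 11, against 15% of all genes. The methods' t-test gave 9 without adjustment, against 12.9% of all genes, and 0 with it. Medians of the lists were 0.06 for 17 coregulators and degradation factors, -0.05 for 15 upstream regulators, -0.05 for 22 targets and -0.34 for the 2 measured reprogramming partners of KLF4.

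CREBBP, an acetyltransferase that serves as a coactivator of several KLF proteins, had the lowest p of these lists. Its signals were 1642, 1708 and 1439 in NME2-depleted cells and 1961, 2370 and 2152 in control cells, with the groups apart (-0.44, SE 0.10, limma adjusted p = 0.0894). CTBP2, the corepressor bound by KLF3, had 8355, 7422.5 and 7883 in NME2-depleted cells and 9074, 9781 and 8814.5 in control cells (-0.23, SE 0.07, adjusted p = 0.212). BTRC, a ubiquitin ligase subunit described for KLF4, had a difference of 0.38 (SE 0.13, adjusted p = 0.243). Of the upstream regulators, the TGF-beta signalling genes TGFBR2, SMAD2 and SMAD3 had the lowest p-values. Their differences were -0.18 (SE 0.08), -0.22 (SE 0.10) and -0.16 (SE 0.10), with adjusted p-values from 0.359 to 0.55. These values are from the brightest tested probe set of each gene. Other tested probe sets, 2 of CREBBP, 4 of CTBP2, 2 of BTRC, 1 of TGFBR2, 4 of SMAD2 and 3 of SMAD3, are not described here.

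Targets described for KLF4 in other cells did not pass either. CDKN1A, a cell cycle inhibitor that KLF4 is known to activate, had 7241, 5720 and 6167 in NME2-depleted cells and 8839, 6856 and 7463 in control cells. The groups overlapped (-0.27, SE 0.11, limma adjusted p = 0.312). ODC1, a polyamine enzyme described as repressed by KLF4, had 4591, 4570 and 4403 in NME2-depleted cells and 4051, 4011 and 4051 in control cells, which were apart (0.16, SE 0.06, adjusted p = 0.314). The keratin gene KRT8 had a difference of -0.24 (SE 0.08, adjusted p = 0.209). SOX2 and MYC, used together with KLF4 in reprogramming, had -0.58 (SE 0.29) and -0.10 (SE 0.08), with adjusted p-values of 0.426 and 0.674. SOX2 was dim, at 55.3 to 96.7 in NME2-depleted and 101.8 to 120.9 in control cells.

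**Figure D4:**
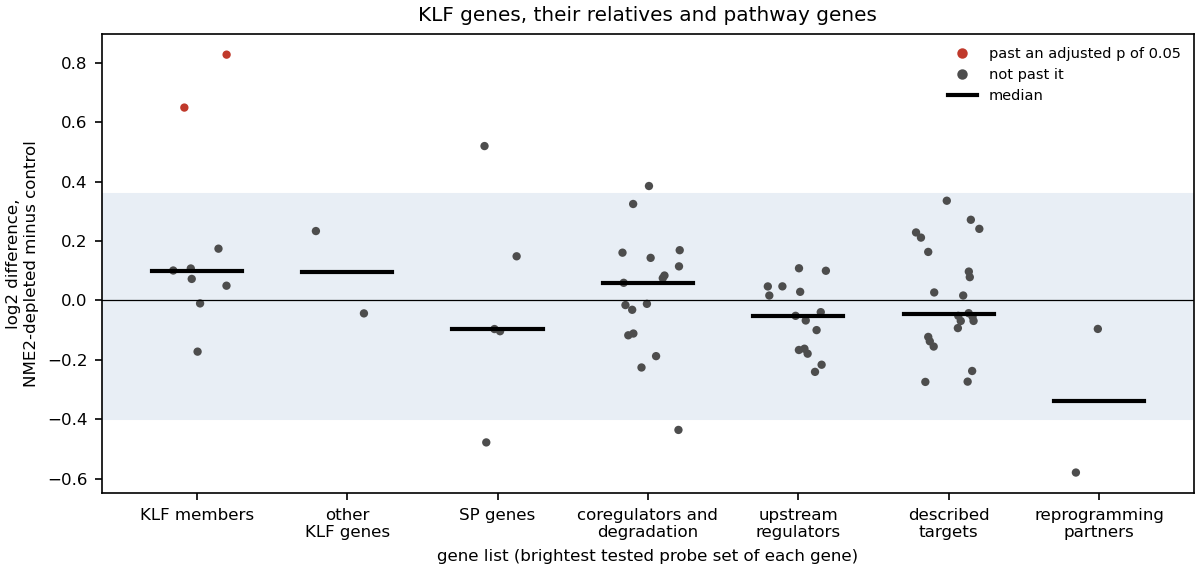
Log2 difference, NME2-depleted minus control (vertical axis), of the tested genes of the KLF family, other KLF genes, SP genes and 4 lists of pathway genes; each point is a gene, black bars are medians, and the shaded band holds the genes between the 5th and 95th percentile of all 12406. KLF4 and KLF7 (red) are the points past an adjusted p of 0.05, and the medians of the larger lists lie between -0.10 and 0.10.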

How the data were processed

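Sample titles gave the group and replicate number. The authors hybridised biotin-labelled cRNA of each sample to 1 HG-U133 Plus 2.0 array, and the deposited values, 1 linear intensity for each probe set, come from GCOS 1.1.1 per the labels. Trimmed means (2% at each end) were equal in the 6 arrays, so every array had been scaled alike and no further normalization was applied. Scaling of this kind removes any change common to the whole transcriptome. Without detection calls, which were not used here, low signal does not show absence. Arrays have no read depth, and precision is limited by having 3 of them per group. The series text calls the samples biological replicates without describing separate cultures, so p-values cover only sample-to-sample spread, which may be technical.

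The 62 control probe sets were left out of 54675. Signals under 1 were set to 1 and log2 was taken. The 27307 probe sets at or above the median of the mean log2 signal entered limma 3.58.1 under R 4.3.3, in which eBayes followed lmFit and used the intensity trend. Two-sided p-values were adjusted after Benjamini-Hochberg over all of them, with a threshold of 0.05. The script was tested on simulated data. For values per gene the brightest tested probe set stood for it, and gene names came from the platform annotation of probe sets with 1 symbol, where a lookup by gene identifier changed 0 symbols. The NME2 probe set also carries the read-through NME1-NME2.

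The members and lists were chosen with earlier results of these data known. The text names every member, NME2, every tested SP and other KLF gene, from each pathway list the genes past the threshold or else the 3 of lowest p, and the 5 genes closest to KLF4 and to KLF7 within groups. The cell type markers were named after their values were seen.

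Alternatives were quantile normalization, median centring, an offset of 16 before log2, filters at the 25th and 75th percentile or none, no intensity trend, the replicate number as a block, shared probe sets left out, each array left out, averaging the probe sets of each gene, and the methods' t-test.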

Additional observations from a re-analysis of the deposited data

How the results depend on the processing

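Over all tested probe sets 108 passed as reported, 32 higher and 76 lower in NME2-depleted cells. Of the KLF probe sets 2 passed, and the median KLF difference was 0.10. With median centring, which moved the median of all probe sets to -0.037, 127 passed, 20 higher and 107 lower, of which 1 was a KLF probe set, and the median KLF difference was 0.052. Filters at the 25th percentile, at the 75th percentile and none left 74, 192 and 30 probe sets past the threshold, with 1, 2 and 1 of the KLF family. With no intensity trend 0 probe sets and 0 KLF probe sets passed, and the NME2 difference of -2.78 missed the threshold (limma adjusted p = 0.228). Without shared probe sets 61 and 0 passed, but the 2 passing KLF probe sets, 221841_s_at and 240432_x_at, were among those taken out. With the methods' t-test 3065 probe sets, 3 SP and other KLF genes and 9 pathway genes had an unadjusted p under 0.05. After Benjamini-Hochberg adjustment 0 probe sets and 0 KLF probe sets passed, and NME2, at -2.78, missed the threshold. Leaving out 1 array at a time gave 19 to 70 of 27307 probe sets, 0 to 1 KLF probe sets and a median KLF difference of 0.032 to 0.14. In these fits 0 SP, other KLF and pathway genes passed, and with so few probe sets called nothing is read from this 0. NME2 lay between -2.96 and -2.50. The cause of these changes was not tested. Some of these fits also held fewer arrays or probe sets.

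The replicate numbers were not described as a shared batch. Deviations from the group means correlated at 0.11, 0.08 and 0.07 for numbers 1, 2 and 3, and every sample correlated best with its own number, a hint from the data only. With the replicate block 464 of 27307 probe sets passed, 221841_s_at of KLF4 and 240432_x_at of KLF7 among them. Of the 54 tested pathway genes 3 passed, CDKN1A, CREBBP and KRT8. The share of all genes that passed in this fit was not computed, so nothing is read from these 3.

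Over its alternatives KLF4 kept its side of the threshold in 9 of 15 and KLF7 in 4 of 16. KLF4 had no value when shared probe sets were left out. Both genes kept their direction in all of these, but most of these settings could not have reversed it. Filters, trend and replicate block left the differences unchanged, and leaving out an array cannot reverse groups that do not overlap. KLF7 missed the threshold with median centring (adjusted p = 0.0767), the 25th percentile filter (0.0515) and no filter (0.0712). With no intensity trend both genes missed it (0.249). For the other 7 tested KLF genes 105 of 107 values moved by less than the spread between samples. The exceptions were KLF3, at 0.18, and KLF13, at -0.43, when the probe sets of each gene were averaged. Stability is not read from this count, because most of these settings could hardly move a value that far. The filters, the trend and the replicate block left each difference unchanged. A left-out array can shift a group mean by only part of the SD of that group.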

Other observations

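After the group means were subtracted, the 5 genes whose log2 signal followed KLF4 most closely over the 6 arrays were TONSL, EHMT1, TXNDC12, BPGM and PODXL, with Pearson correlations from 0.996 to 0.998. For KLF7 they were CSTPP1, CDC16, KIFAP3, TSEN54 and UTS2R, from 0.997 to 0.999. Over only 6 arrays, 289 of 12405 genes were above 0.9 with KLF4 and 320 with KLF7. Genes as close as the 10 named ones were not counted, and nothing is read from their closeness. None of these 10 genes passed the limma threshold between groups (adjusted p from 0.144 to 0.935), and their differences ran from -0.67 to 0.21, apart from PODXL at 0.49. The points share arrays and the scaling of each array.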
